A study of Mus musculus with 6 samples.

Results

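The genes described here are the variable and constant genes of the antibody light chains, followed across 6 single-cell libraries of mouse colon. All genes whose symbol begins with Igkv or Iglv were taken, together with Igkc and the Iglc genes. This gave 168 of the 32285 genes in the count matrices, namely 160 Igkv, 3 Iglv, 1 Igkc and 4 Iglc genes. Of the 163 V genes, 103 are annotated as functional V genes and 60 as V pseudogenes. The mice were wild type, and each library was made from the sorted CD45-positive colon cells of 1 group. The SPF (specific pathogen free) arm comprised a control library (day 0) and libraries after 2 and 7 days of DSS, dextran sulfate sodium, which damages the lining of the colon. The pGF (pseudo germ-free) arm comprised mice after 4 weeks of antibiotics without DSS (day 0), and mice that then received antibiotics and DSS together for 2 or 7 days. RNA was counted from droplet-based single-cell libraries read from the 5′ end. How many animals each library pooled, their ages and the antibiotics are not given in the sources used here. With 1 library per group there was no replicate and no test, and every difference below compares libraries rather than conditions. Where values are listed per arm, they run in the order of days 0, 2 and 7.

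An antibody is built from a heavy chain and a light chain, and the light chain comes from either the kappa or the lambda locus. A developing B cell joins 1 V gene to 1 J segment, and as a rule expresses the product of a single light-chain allele, so its V gene acts as an inherited tag of its clone. Plasma cells are the antibody-secreting end stage, and in the gut most of them make IgA, which is carried across the epithelium to coat the flora. Mouse light chains are mostly kappa, and the lambda locus holds few V genes. In names such as Igkv8-30 the number before the hyphen is the sequence subgroup and the number after it is the position counted outward from the J segments.

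Of the V segments that led the plasma or B cells of a library under some setting, 7 of those described most below are shown by the last 60 bases of their germline GENCODE M21 transcripts (GRCm38), 5′ to 3′. Capitals begin at the conserved cysteine codon, where the V-encoded part of the third antigen-binding loop starts. They are given because this stretch is the germline start of that loop. All the kappa segments are on chromosome 6: Igkv8-30 at chr6:70117061-70117620 on the minus strand, Igkv12-46 at chr6:69764523-69765022 on the minus strand, Igkv6-23 at chr6:70260409-70260955 on the minus strand, Igkv10-96 at chr6:68631963-68632442 on the minus strand, Igkv5-43 at chr6:69823355-69823943 on the minus strand, Igkv2-137 at chr6:67555497-67556216 on the plus strand, and Igkv1-117 at chr6:68121046-68121827 on the plus strand.
Igkv8-30: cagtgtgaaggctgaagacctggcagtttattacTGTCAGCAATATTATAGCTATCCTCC
Igkv12-46: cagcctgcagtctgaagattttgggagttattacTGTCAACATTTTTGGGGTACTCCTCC
Igkv6-23: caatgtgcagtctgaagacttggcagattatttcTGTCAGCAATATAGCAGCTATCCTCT
Igkv10-96: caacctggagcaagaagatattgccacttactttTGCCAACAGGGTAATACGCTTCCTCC
Igkv5-43: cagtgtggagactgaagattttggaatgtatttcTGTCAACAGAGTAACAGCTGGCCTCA
Igkv2-137: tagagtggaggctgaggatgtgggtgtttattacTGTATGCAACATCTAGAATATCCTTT
Igkv1-117: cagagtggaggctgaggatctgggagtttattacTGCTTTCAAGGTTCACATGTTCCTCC
Several of these have a close copy, so reads can be split between them. Over the last 290 bases Igkv5-43 was 99.0% identical to Igkv5-45 and Igkv1-117 was 96.9% identical to Igkv1-110. Igkv6-23 was 96.2% identical to Igkv6-13, Igkv12-46 was 95.2% identical to Igkv12-41 and Igkv10-96 was 94.5% identical to Igkv10-94. Igkv8-30 stood further from its nearest functional relative, Igkv8-24, at 92.4%. The count of Igkv5-43, with 3 differing bases, is therefore the least certain.

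Plasma cells were gated on raw counts: at least 5 UMIs (unique molecules) over Mzb1, Derl3, Tnfrsf17 and Sdc1, with 2 of them detected, no Ms4a1 and at most 2 UMIs of genes of other lineages. The gate gave 641, 275 and 62 plasma cells in SPF and 226, 47 and 218 in pGF, with median depths of 11881 to 30300 UMIs. Jchain, which links IgA into polymers, was detected in all of them, Pax5, the B-cell identity factor, in none, and Xbp1, the secretory factor, in 98.2% to 100%. Other B-cell genes differed: Cd79b was detected in 72.6% to 93.8% of a library's plasma cells and Ebf1 in 1.82% to 14.9%. Bank1, Cd22, Fcer2a, Cr2 and Ighd were detected in at most 2.13%. Igha was the leading heavy-chain constant gene in 627, 272 and 61 of the SPF and 223, 46 and 212 of the pGF plasma cells. B cells, gated on raw counts of B-cell marker genes with Ms4a1 required, numbered 3, 12 and 166 in SPF and 7, 64 and 437 in pGF, so they are described only for SPF day 7, pGF day 2 and pGF day 7. Neutrophil RNA marked 1 library: S100a8 was detected in 66.1% of SPF day 7 plasma cells and in at most 0.459% of those of any other library. The part of such RNA in the results was not tested.

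Epcam, an epithelial adhesion gene that was among the other-lineage genes of the gate, was detected in 37.1% to 73.4% of the plasma cells that passed. Its UMIs by themselves exceeded the limit in 370 of 1060 otherwise gated cells of SPF day 0 and 354 of 590 of pGF day 0. In the other libraries such cells were 60 of 367 (SPF day 2), 7 of 86 (SPF day 7), 26 of 80 (pGF day 2) and 37 of 290 (pGF day 7). Such a cell could also be over the limit by the other genes. The limit left out 419, 92 and 24 SPF cells and 364, 33 and 72 pGF cells. Without Epcam it left out 57, 43 and 18 SPF cells and 17, 11 and 35 pGF cells. The lambda share, leading V gene share, effective number and counts of the named V genes in plasma cells were recomputed without Epcam in the limit. Several of these are given both ways below. Igkv1-135 in pGF day 0 went from 2 cells (0.885%) to 22 of 559 cells (3.94%). Heavy-chain partners, J genes, position along the locus, subgroups, summed CPM and B-cell results were not recomputed without Epcam.

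Light-chain transcripts made up 32.0%, 21.9% and 36.3% of all plasma cell UMIs in SPF and 32.4%, 28.0% and 29.9% in pGF. A plasma cell was assigned the V gene that held at least 50% of its light-chain V UMIs, with at least 5 UMIs. This assigned 629 of 641, 273 of 275 and 62 of 62 SPF cells and every pGF plasma cell. Within a cell the leading V gene held a median of 97.5% to 99.0% of V UMIs. In T cells of the same libraries, which do not rearrange light chains, the same rule assigned only 1.56% to 8.21% of cells, at median depths of 2481 to 5226.5 UMIs.

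Plasma cells drew on 79 of the 163 V genes, all of them functional, and no pseudogene led any of the 1455 assigned cells. Another 24 functional V genes never led a plasma cell. Of the 79, 11 were found in every library and 8 in a single one. The 11 shared by all libraries were led by Igkv10-96 with 85 cells, Igkv12-46 with 66, Igkv1-117 with 53, and Igkv1-110 and Iglv1 with 48 each. Igkv8-30 was the most frequent gene over the series with 102 cells, and it was absent from SPF at day 7.

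**Figure D1:**
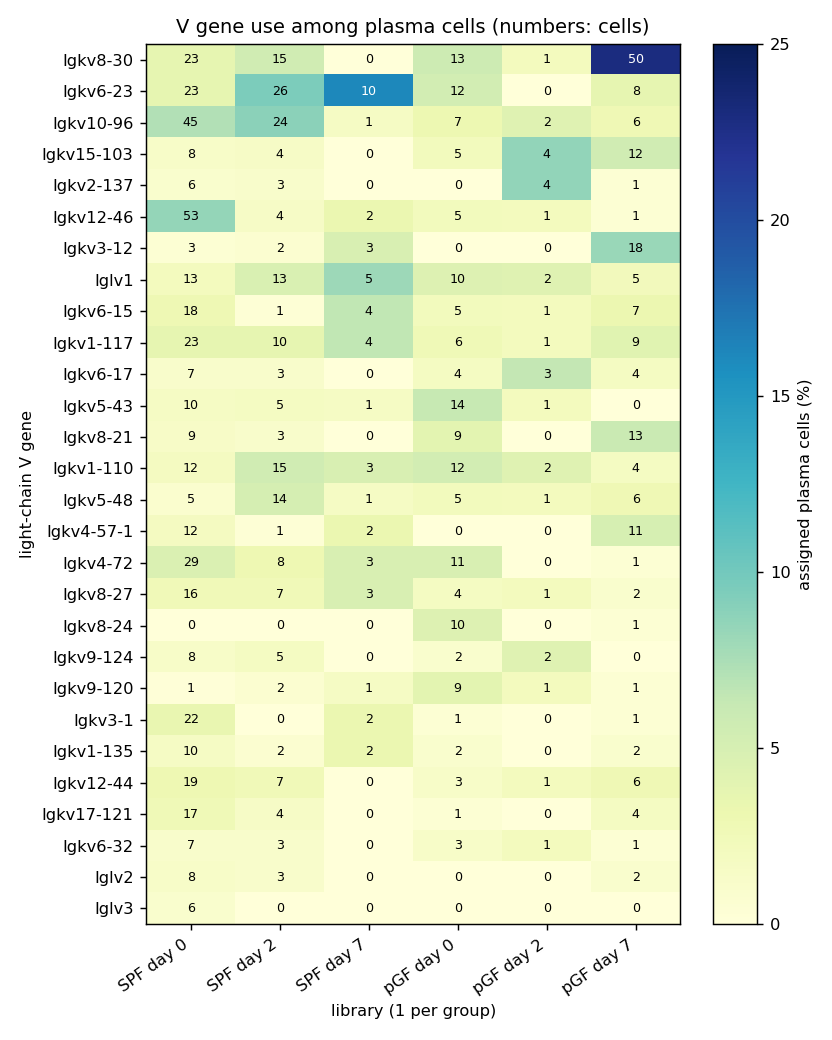
Share of assigned plasma cells (colour, %) using each of the 28 named light-chain V genes (rows) in each of the 6 libraries (columns, 1 per group), with the number of cells printed in each field. Igkv8-30 reached 22.9% in pGF day 7 and had no cell in SPF day 7, where Igkv6-23 reached 16.1%.

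Igkv8-30 led 23 of 629 (3.66%), 15 of 273 (5.49%) and 0 of 62 SPF plasma cells at days 0, 2 and 7. In pGF it led 13 of 226 (5.75%), 1 of 47 (2.13%) and 50 of 218 (22.9%). The pGF day 7 library stood above all the others, with an exact 95% interval of 17.5% to 29.1% against an upper bound of 11.3% or less elsewhere. The 62 cells of SPF day 7 allow a share of up to 5.78%. Intervals here and below are Clopper-Pearson intervals that cover counting error alone. They treat each cell as a separate draw, also where cells may belong to 1 clone.

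Igkv6-23 showed another order. It led 3.66%, 9.52% and 16.1% of SPF plasma cells (23, 26 and 10 cells) and 5.31%, 0% and 3.67% of pGF plasma cells (12, 0 and 8 cells) at days 0, 2 and 7. The SPF day 7 interval, 8.02% to 27.7%, lay above that of pGF day 7, 1.60% to 7.10%, and overlapped that of SPF day 2, 6.32% to 13.6%. However, 7 of the 10 SPF day 7 cells and 3 of the 8 pGF day 7 cells shared the heavy-chain V gene Ighv1-39. Igkv10-96 was frequent in SPF at days 0 and 2, with 45 cells (7.15%) and 24 cells (8.79%), and led 1 SPF day 7 cell. Its pGF counts were 7, 2 and 6 cells, or 3.10%, 4.26% and 2.75%.

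Igkv12-46 was the leading gene of SPF day 0 with 53 cells (8.43%), and its counts elsewhere were 4, 2, 5, 1 and 1. Without Epcam in the gate Igkv12-46 fell behind Igkv10-96 in SPF day 0, at 63 against 75 of 972 cells. Igkv5-43 led pGF day 0 with 14 cells (6.20%, 3.43% to 10.2%), a share that overlapped those of the next genes of that library. Dropping Epcam there made Igkv1-110 the leader, with 51 of 559 cells (9.12%) against 27 for Igkv5-43. Igkv8-24, which had 10 cells (4.42%) in pGF day 0, had none in the SPF libraries and 1 in pGF day 7. Without Epcam in the gate its counts were 18 in pGF day 0, 1 in pGF day 7 and 0 in the other libraries.

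At day 7 the other genes with the largest excess in pGF over SPF were Igkv8-21, at 13 against 0 cells, and Igkv15-103, at 12 against 0, where the 62 SPF cells allow shares up to 5.78%. Igkv3-12 led 18 pGF cells (8.26%) against 3 SPF cells (4.84%), a difference inside the counting error of 62 cells. The genes most in excess in SPF were Igkv6-23, Iglv1, at 5 of 218 (2.29%) against 5 of 62 (8.06%), and Igkv4-72, at 1 against 3 cells. At day 2 the pGF library held only 47 plasma cells, and Igkv2-137 and Igkv15-103 led with 4 cells each (8.51%, 2.37% to 20.4%). Igkv6-23 was absent among those 47 cells, which allows up to 7.55%.

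Use was spread most evenly in the day 0 and pGF day 2 libraries. The effective number of V genes is the inverse of the chance that a pair of assigned cells shares a V gene, and being an estimate for the whole population it can exceed the number seen. It came to 33.3, 28.1 and 22.2 for SPF, and to 34.5, 49.1 and 13.4 for pGF. The pGF day 7 value was the lowest, also with Epcam left out of the gate (12.95) and with no other-lineage limit (13.8). The pGF day 2 value, from 47 cells, was the highest, but it came to 37.2 without Epcam in the gate, beside 34.95 in SPF day 0 and 31.5 in pGF day 0. With no other-lineage limit it was 34.4, below the 35.2 of SPF day 0. For 47 cells from each library the expected number of V genes was 27.9, 26.7 and 24.98 in SPF and 27.2, 32 and 23.0 in pGF. The 5 most used genes held 27.5%, 34.4% and 41.9% of SPF and 27.4%, 31.9% and 47.7% of pGF plasma cells. In both arms day 7 was therefore the most concentrated library by the 5 leading genes.

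**Figure D2:**
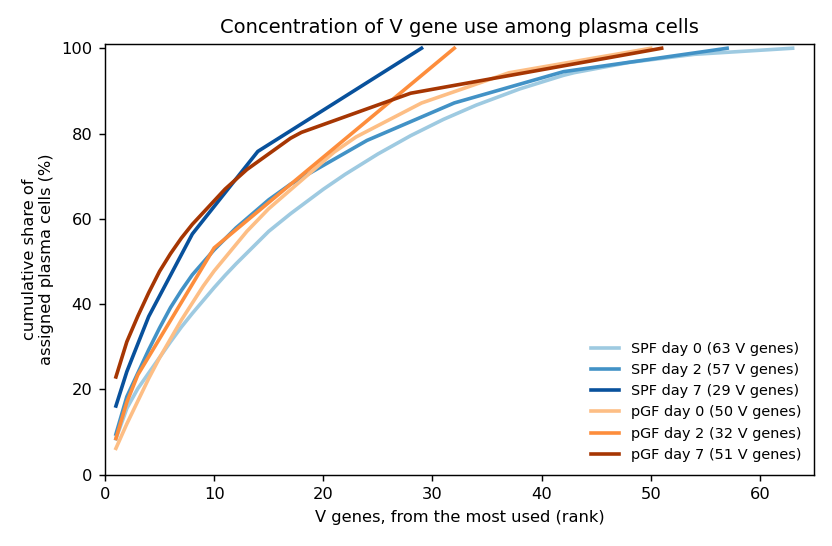
Cumulative share of assigned plasma cells (%) against V genes ordered from the most used, 1 line per library, with the number of V genes used in the legend. The pGF day 7 line starts highest, at 22.9% for its leading gene and 47.7% for 5 genes, and the SPF day 0 and pGF day 0 lines run low.

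The heavy-chain partner showed whether the cells of a V gene shared 1 combination or many. A heavy-chain V gene was assigned by the same rule, and cells with both chains fell into 599 light and heavy combinations, 492 of which were found in 1 library. Most combinations of a library rested on 1 cell: 135 of 251, 131 of 176 and 34 of 44 in SPF, and 77 of 118, 38 of 41 and 73 of 104 in pGF. At such small counts the 492 do not show how far the libraries differ. In pGF day 7, 37 of the 50 Igkv8-30 cells carried Ighv6-6, which is 17.0% of the 218 cells (12.2% to 22.6%), and the other libraries held 1 cell of that combination. All 37 made IgA, and in 34 cells with heavy-chain J UMIs Ighj2 led in all 34, against 38.0% of all pGF day 7 plasma cells with such UMIs. In the same library Igkv3-12 with Ighv2-2 made up 17 of 18 Igkv3-12 cells, all 17 with Ighj3. Igkv4-57-1 with Ighv1-64 made up 11 of 11 cells, all with Ighj4, and Igkv8-21 with Ighv2-9-1 made up 9 of 13, all 9 with Ighj1 and Igkj2. Over that library's plasma cells Ighj3, Ighj4 and Ighj1 led 22.35%, 20.1% and 19.6% and Igkj2 led 51.3%. All such J gene shares over a library's plasma cells, here and below, include the cells compared with them. Shared V and J genes were read from gene counts, and junction sequences, which define a clone, were not analysed here.

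Large combinations occurred in the day 0 libraries as well. Igkv12-46 with Ighv9-3 accounted for 31 of the 53 Igkv12-46 cells of SPF day 0 and no cell of any other library, with Ighj3 leading in 24 of 30 cells, against 18.6% of that library's plasma cells. Igkv8-24 with Ighv1-72 accounted for 9 of 10 Igkv8-24 cells of pGF day 0, all with Igkj5 and Ighj2, which led 43.4% and 46.4% of pGF day 0 plasma cells with such UMIs. By contrast Igkv5-43, the leading gene of pGF day 0, had 8 partners over its 14 cells, the commonest of them in 3 cells. Igkv10-96 in SPF day 0 was split too, its largest combination, with Ighv1-4, holding 10 of 45 cells.

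**Figure D3:**
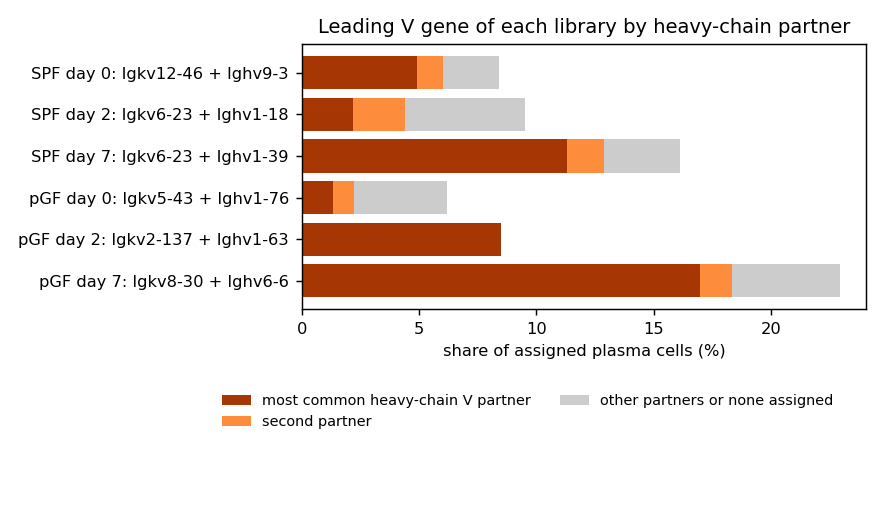
Share of assigned plasma cells (%) held by the leading V gene of each library, divided into its most common heavy-chain V partner (dark, named on the axis), its next partner and all others. Ighv6-6 takes 17.0 of the 22.9 percentage points of Igkv8-30 in pGF day 7, and Ighv1-76 takes 1.33 of the 6.20 points of Igkv5-43 in pGF day 0.

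Counting each light and heavy combination once, an alternative added after the data had been seen, lowered the leading share in 5 of the 6 libraries. The effective number of V genes became 48.6, 39.0 and 49.8 in SPF and 51.1, 82 and 42.9 in pGF. The pGF day 7 value rose from 13.4 to 42.9, and its leading share fell from 22.9% to 8.65%, still with Igkv8-30 and its 9 different partners. Igkv10-96 then led in SPF at days 0 and 2, at 5.98% and 6.25% of combinations.

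Of the 599 combinations, 89 were found in 2 libraries, 12 in 3, 2 in 4 and 4 in 5. The 4 most widely shared are described here. Igkv8-27 with Ighv1-55 was found in 13, 5 and 2 SPF cells and 1, 0 and 1 pGF cells. Wherever a heavy-chain J gene was read, Ighj3 led it in 13 of 13, 4 of 5 and 2 of 2 SPF cells and in the pGF day 7 cell. Igkv6-23 with Ighv1-39 was found in 1, 6 and 7 SPF cells and 2, 0 and 3 pGF cells. Ighj3 led in 18 of these 19 cells, but the light-chain J gene varied, with Igkj4 in 5 of 6 cells of SPF day 2 and Igkj2 in 6 of 7 cells of SPF day 7. Over all plasma cells Ighj3 led 12.5% to 35.3% in the 6 libraries, Igkj4 led 15.4% in SPF day 2 and Igkj2 led 57.6% in SPF day 7. Igkv6-15 with Ighv1-53 and Iglv1 with Ighv1-26 were also found in 5 of the 6 libraries, in 11 and 20 cells. With Igkv6-15, Ighj2 led wherever a heavy-chain J gene was read, in 2 SPF day 0, 3 pGF day 0 and 1 pGF day 7 cells. With Iglv1 the heavy-chain J gene varied. Ighj2 led in 3 of 3 cells of SPF day 0 and of SPF day 2. Ighj1 led in 2 of 4 cells of SPF day 7 and 3 of 4 of pGF day 0, and Ighj3 in 2 of 2 of pGF day 7. Ighj2 led 24.0% to 46.4% of all plasma cells with such UMIs. Barcodes shared between libraries numbered 5 to 131 per pair, or 0.279% to 1.67% of the smaller library; 2 shared barcodes were plasma cells in both, and neither had the same V gene.

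The kappa locus was used along its whole length. V genes numbered up to 50, nearest the J segments, led 44.7%, 44.7% and 50.0% of SPF and 45.1%, 34.0% and 57.3% of pGF plasma cells, from 52 of the 160 Igkv genes. The 43 genes numbered over 100, at the far end, led 22.4%, 23.1% and 22.6% in SPF and 22.6%, 36.2% and 19.3% in pGF. Only pGF day 7 stood above SPF day 0 in the near band beyond counting error (50.5% to 64.0% against 40.7% to 48.7%), and that library held the 50 Igkv8-30 cells. By sequence subgroup, Igkv8 held 30.7% of pGF day 7 cells against 6.45% to 15.9% elsewhere, and Igkv6 held 25.8% of SPF day 7 cells against 9.17% to 17.2% elsewhere. Igkv4 held 11.9% to 19.0% everywhere.

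Lambda light chains were a small share in every library. A plasma cell was called lambda where Iglc held at least 80% of its light-chain constant UMIs. This gave 25 of 641 (3.90%), 15 of 275 (5.45%) and 4 of 62 (6.45%) SPF cells, and 9 of 225 (4.00%), 2 of 47 (4.26%) and 7 of 218 (3.21%) pGF cells. All 6 intervals overlapped, the widest running from 0.520% to 14.5% in pGF day 2. The kappa to lambda ratio in cells was 23.8, 17.2 and 14.2 in SPF and 23.2, 21.5 and 29.4 in pGF. Called from the V gene, lambda held 4.29%, 5.86% and 8.06% of SPF cells and 4.42%, 4.26% and 3.21% of pGF cells. As a share of summed constant UMIs rather than of cells, Iglc made up 10.2%, 5.78% and 10.55% in the SPF libraries and 9.14%, 7.55% and 6.71% in the pGF libraries. These sums include Iglc UMIs of cells with an Igkv gene. In those cells Iglc was 7.19%, 2.22% and 3.63% of constant UMIs in SPF and 7.03%, 5.38% and 5.10% in pGF. With Epcam left out of the gate the share in cells of pGF day 2 was 10.1%, and in the other libraries 2.75% to 7.35%.

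**Figure D4:**
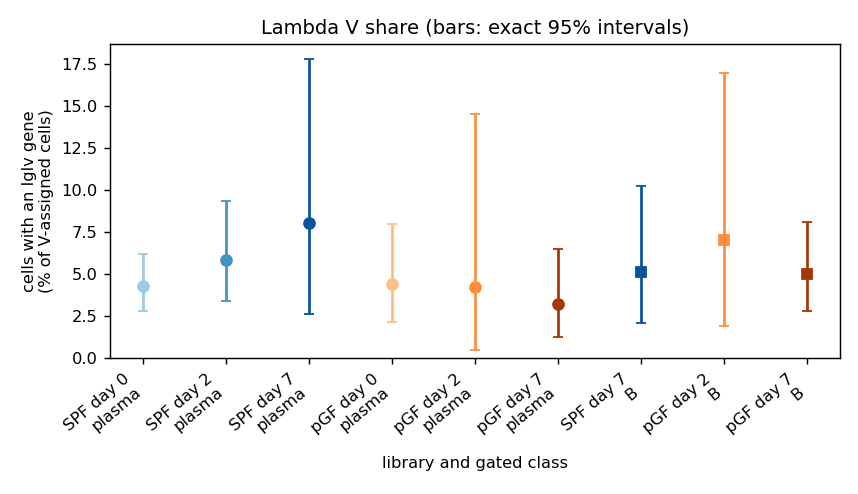
Share of V-assigned cells that carry an Iglv gene (%) in gated plasma cells (circles, 6 libraries) and B cells (squares, the 3 libraries with at least 50), with exact 95% intervals for counting error. The points lie between 3.21% and 8.06% and all intervals overlap.

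The lambda V genes are annotated on the minus strand of chromosome 16, and Iglv1 (chr16:19085017-19085500) and Iglv2 (chr16:19260401-19260859) are near copies. Over their aligned transcripts they were 96.7% identical. Their last 60 bases differ at 3 positions, shown in capitals.
Iglv1: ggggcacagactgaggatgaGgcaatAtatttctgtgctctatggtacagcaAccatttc
Iglv2: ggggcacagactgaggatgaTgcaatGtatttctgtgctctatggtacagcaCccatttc
Iglv3 (chr16:19241207-19241690) is only 60.9% identical to Iglv1, and is shown from its cysteine codon in capitals.
Iglv3: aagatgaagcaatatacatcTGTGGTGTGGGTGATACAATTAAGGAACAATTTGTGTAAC
Iglv1 led 13, 13 and 5 SPF plasma cells and 10, 2 and 5 pGF plasma cells. Iglv2 led 8, 3 and 0 SPF cells and 0, 0 and 2 pGF cells, and Iglv3 led 6 cells, all in SPF day 0.

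Each lambda V gene went with particular constant genes. Of the 48 Iglv1 plasma cells, Iglc1 led the lambda constant UMIs in 40, Iglc3 in 7 and Iglc2 in 1. All 13 Iglv2 and all 6 Iglv3 cells had Iglc2. In the annotation Iglc1 (chr16:19061618-19062071) and Iglc3 (chr16:19065230-19065681) lie beside Iglv1, and Iglc2 (chr16:19198396-19200351) lies beside Iglv3 and Iglv2. Iglc4, the remaining constant gene, had 1 to 34 UMIs over all plasma cells of a library and led none. Of the 8 Iglv2 cells in SPF day 0, 7 carried Ighv1-26 with Ighj4, which led 33.3% of that library's plasma cells.

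B cells showed a light-chain pattern of their own. Their chain RNA was scarce, with medians of 6 to 10 V UMIs a cell against 895 to 8218 in plasma cells, so a V gene was assigned from 2 UMIs. This assigned 137 of 166 cells in SPF day 7, 57 of 64 in pGF day 2 and 300 of 437 in pGF day 7 (82.5%, 89.1% and 68.6%). The same rule assigned 12.7%, 14.1% and 16.0% of T cells. With each cell thinned to 1000 UMIs the shares were 63.8%, 66.1% and 55.9% in B cells and 3.42%, 3.91% and 6.81% in T cells, after leaving out 6, 2 and 18 B cells and 263, 90 and 75 T cells of lower depth. Median depths were 2009 to 2886.5 UMIs in B cells and 2481 to 2999 in T cells.

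No V gene dominated B cells. The leading gene was Igkv1-135 in SPF day 7 with 10 cells (7.30%, 3.56% to 13.0%), Igkv6-15 in pGF day 2 with 4 cells (7.02%, 1.95% to 17%), tied with Igkv1-117, and Igkv1-117 in pGF day 7 with 21 cells (7%, 4.39% to 10.5%). Igkv1-117 was among the 3 leading genes of all 3 libraries. The effective numbers of V genes were 46.4, 59.1 and 43.5, above those of the plasma cells of the same libraries, 22.2, 49.1 and 13.4. Igkv8-30, at 22.9% of pGF day 7 plasma cells, led 2 of 300 B cells there (0.667%, 0.0808% to 2.39%), although it held 4.75% of B-cell V UMIs and 23.4% of the V UMIs found in T cells. Among B cells with both chains assigned, 34 combinations were found in 35 cells of pGF day 7 and 27 in 27 cells of SPF day 7.

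B cells used the far end of the kappa locus more than plasma cells of the same library in pGF day 7, where genes numbered over 100 led 36.7% of B cells (31.2% to 42.4%) and 19.3% of plasma cells (14.3% to 25.1%). In SPF day 7 the values were 32.1% and 22.6%, with overlapping intervals, and in pGF day 2 26.3% and 36.2%, also overlapping. The 218 plasma cells of pGF day 7 include the 50 Igkv8-30 cells, 37 of them with Ighv6-6, and the interval counts each as a separate draw. The part of these cells in the difference was not tested. The Igkv1 subgroup held 15.3%, 17.5% and 16.7% of B cells in SPF day 7, pGF day 2 and pGF day 7, against 16.1%, 8.51% and 9.63% of plasma cells. Igkv4 held 12.4%, 8.77% and 6.33% of B cells against 14.5%, 14.9% and 11.9% of plasma cells.

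Many kappa B cells also carried lambda constant RNA. Among B cells with an Igkv gene, Iglc supplied 38.0%, 43.5% and 36.6% of all constant UMIs in SPF day 7, pGF day 2 and pGF day 7. In kappa plasma cells of those libraries it supplied 3.63%, 5.38% and 5.10%, and in T cells, as a measure of free RNA, 7.39%, 14.5% and 9.10%. The lambda RNA in kappa B cells came mainly from Iglc2, with means of 1.09, 3.38 and 1.63 UMIs a cell, and Iglc3, with 1.06, 1.66 and 1.03. Iglc1 gave 0.231, 0.434 and 0.193 UMIs. Igkc itself averaged 3.89, 7.09 and 4.94 UMIs in these cells.

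**Figure D5:**
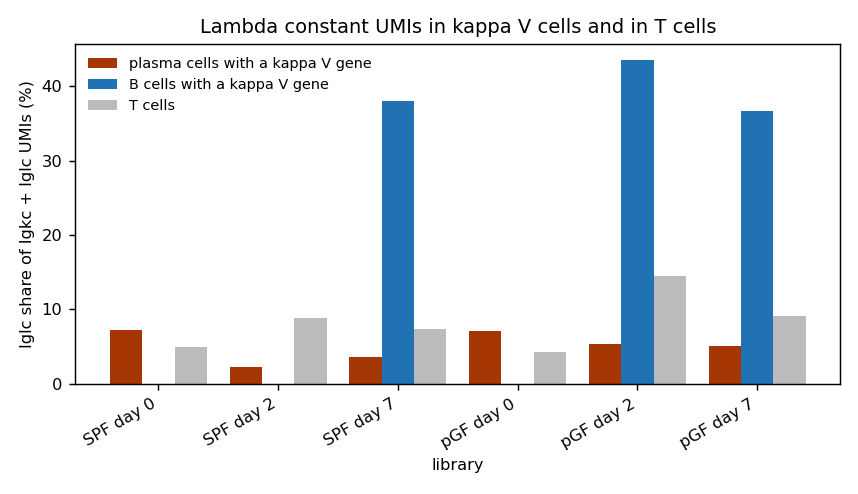
Iglc share of summed Igkc and Iglc UMIs (%) in plasma cells with a kappa V gene, B cells with a kappa V gene (3 libraries with at least 50 B cells) and T cells of each library. The B-cell bars reach 36.6% to 43.5%, and no plasma or T-cell bar exceeds 14.5%.

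Iglc2 and Iglc3 are themselves alike, at 95.4% identity, while Iglc1 is 69.2% and 70.8% identical to them. The first 60 aligned bases are shown with the differing bases in capitals, since the pair is the source of most lambda RNA in kappa B cells.
Iglc2: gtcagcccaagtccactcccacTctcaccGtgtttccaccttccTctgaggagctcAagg
Iglc3: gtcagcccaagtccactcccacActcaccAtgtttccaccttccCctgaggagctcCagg
Calls from constant genes were accordingly mixed in B cells. Of callable B cells, 58.8%, 57.6% and 66.4% fell between the kappa and lambda limits, against 0.727% to 4.26% of plasma cells. The lambda shares from constant genes were 8.40% (4.103% to 14.9%), 15.3% (7.22% to 27.0%) and 5.82% (3.68% to 8.68%) in SPF day 7, pGF day 2 and pGF day 7. From V genes they were 5.11%, 7.02% and 5%, and 4 of 10, 4 of 9 and 7 of 22 lambda-called B cells carried an Igkv gene.

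Another light-chain V gene with at least 25% of V UMIs was found in 64 of 1469 plasma cells. By library these were 41, 10 and 0 SPF cells and 3, 2 and 8 pGF cells. In 57 of the 64 both genes were kappa. In 25 another heavy-chain V gene passed the same limit as well, and in 39 only the light chain was double. Median depth in cells with and without another light-chain V gene was 27364 and 24549 UMIs in SPF day 0, 16764 and 11785 in SPF day 2, and 68776 and 30259 in pGF day 0. It was 15710 and 17151 in pGF day 2, and 16334 and 13953 in pGF day 7. The commonest pair was Igkv12-44 with Igkv17-127 in SPF day 0, in 6 cells. In pGF day 7 it was Iglv1 with its near copy Iglv2, in 2 cells. The part that droplets with more than 1 cell had in these counts was not tested.

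How many V UMIs were read for each constant UMI differed widely between libraries. In plasma cells the ratio was 6.54, 0.788 and 6.18 in SPF and 6.12, 2.81 and 2.47 in pGF. Heavy-chain V UMIs per Igha UMI moved alike, at 1.35, 0.0402 and 1.03 in SPF and 1.69, 0.381 and 0.280 in pGF. SPF day 2 was lowest in both. Its part in comparisons of summed expression was not tested, and shares of cells by V gene do not use it.

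UMIs of each gene were also summed over the plasma cells of a library. Values are CPM, the sum scaled to a common total of all UMIs, compared as log2 of CPM plus 10, with a gene called at 2-fold and tested where it reached 10 CPM in 1 of the pair. At day 0, 89 of 168 members reached that level, and 23 (25.8%) were higher and 40 (44.9%) lower in pGF, against 1.02% higher and 1.75% lower among all genes. At day 7, 70 reached it, and 36 (51.4%) were higher and 28 (40%) lower in pGF, against 3.34% and 1.92% of all genes. The median log2 difference of the members was -0.52 at day 0 and 1.14 at day 7, beside -0.02 and 0.20 for all genes. With members at 0 set to 3 counts the day 7 median was 0.98. A member could reach the level through 1 library alone. At day 0, 2 of the 89 had no UMI in SPF and 9 had none in pGF. At day 7, 20 of the 70 had none in SPF, where 62 cells used 29 V genes, and 4 had none in pGF.

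The leading genes of the cell counts had these summed levels. Igkv8-30 had 0 UMIs in SPF day 7 plasma cells and 58207 CPM in pGF day 7. No fold is given, since the V UMIs of a plasma cell come together with that cell, and by cells the limit is the share of up to 5.78% that 62 SPF cells allow against 22.9% in pGF. Igkv8-24 had 8.65 CPM in SPF day 0 and 15151 CPM in pGF day 0. Igkv6-23 had 46598 CPM in SPF day 7 and 4634 CPM in pGF day 7, from 10 and 8 cells (16.1% and 3.67% of assigned cells). No fold is given here either, for the same reason. V UMIs per constant UMI were 6.18 in SPF day 7 and 2.47 in pGF day 7, and the part of that ratio was not tested. The kappa constant gene moved less: Igkc was at 38107 and 41306 CPM at day 0 and at 45199 and 80182 CPM at day 7 in SPF and pGF, both under 2-fold. At day 7 Iglc1 was at 3998 and 1990 CPM, Iglc2 at 968.5 and 3006 CPM and Iglc3 at 364.7 and 769.9 CPM in SPF and pGF. By the 2-fold call Iglc1 was lower and Iglc2 and Iglc3 higher in pGF. Lambda-called plasma cells numbered only 4 in SPF day 7 and 7 in pGF day 7, and Iglv2 led 0 and 2 cells there.

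Genes that build, fold and partner light chains were compared in the same way. Of 12 endoplasmic reticulum genes that fold and load antibody chains, among them the chaperones Hspa5 and Hsp90b1, all were measured above that level and none was 2-fold different at day 0 or day 7. The shares over all genes given above are low as well, so nothing is read from that count. Their median log2 differences were -0.01 and -0.02. Of 14 genes of light-chain assembly and transcription, 7 were tested at each day and none was called; Pou2af1, a coactivator at immunoglobulin promoters, ranged from 167 to 242 CPM over the 6 libraries. Rag1 and Rag2, which cut V and J segments, had no UMI in plasma cells of any library, which in the deepest, SPF day 0, allows up to 0.194 CPM. Of 12 antibody partner genes, 9 were tested at day 0 and 7 at day 7. At day 0 Ighg2c was higher (6.84 and 229 CPM in SPF and pGF) and Ighm (546 and 45.1 CPM) and Ighg1 (1577 and 204 CPM) lower in pGF. At day 7 Ighg1 was higher (14.4 and 1191 CPM) and Ighm lower (2221 and 972 CPM). These sums rest on few cells. At day 0 Ighg2c was the leading heavy-chain constant gene in 0 SPF and 1 pGF plasma cells, Ighm in 5 and 0, and Ighg1 in 9 and 2. At day 7 Ighg1 led in 0 SPF and 2 pGF cells and Ighm in 1 and 1. Jchain held between 52754 and 60083 CPM throughout.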

How the data were processed

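Values are the deposited UMI counts, unnormalized, written by Cell Ranger 6.1.2 per the file headers. The submitters' processing notes name mm10, R 4.1.3 and Seurat 4.1.1. Per the labels' protocols, epithelium was removed with EDTA, tissue was digested and CD45-positive cells were sorted for a 5' kit and a V(D)J kit, whose data were not analysed here. The libraries held 23335071 to 52772901 UMIs in 1792 to 11629 barcodes. Barcodes with at least 200 genes and at most 10% mitochondrial UMIs were kept (1280 to 10633), and plasma and B cells were gated on marker counts, with no doublet caller beyond the limit on other-lineage genes. A marker of the B-cell gate is not reported here. T cells had at least 2 UMIs of Cd3d, Cd3e and Cd3g and no plasma or B marker.

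Members, lists and alternatives were chosen with earlier results of these data known, and the T-cell comparison, heavy-chain pairing and J genes were added after the files were seen. Named V genes were the 5 leading genes of each library's plasma cells and of B cells where 50 were assigned, the 3 largest gains and losses between arms at each day, and all lambda and constant genes. Other V genes are named as closest copies, or as leaders under another setting or in T cells, after their values were seen. Gene lists were given by their counts. CPM summed over plasma cells were compared only where both libraries had at least 50, so not at day 2. Coordinates and sequences are from GENCODE M21, of the same build as mm10, and all 163 V genes had a transcript. V gene and fold calls were run on simulated data drawn from SPF day 0. Simulated B cells had less background V RNA than T cells of the libraries whose B cells are described. Those T cells averaged 1.13 (SPF day 7), 1.12 (pGF day 2) and 1.76 (pGF day 7) V UMIs. The simulation therefore does not show how accurate the B-cell calls are. Python 3.11.15, numpy 2.4.6, scipy 1.17.1, pandas 2.3.3, biopython and edgeR were used, the last for TMM factors alone.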

Additional observations from a re-analysis of the deposited data

Results flagged for a closer look

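Light-chain V genes appeared in T cells, which do not rearrange them. At 5 UMIs and 50% of V UMIs, 8.21%, 3.96% and 2.98% of SPF T cells and 3.79%, 2.19% and 1.56% of pGF T cells at days 0, 2 and 7 were assigned a V gene, above the limit a count of 0 allows. The V gene with the most UMIs in T cells was Igkv6-23 in SPF at days 0 and 7, Igkv12-44 in SPF day 2, Igkv8-30 in pGF at days 0 and 7 and Igkv10-94 in pGF day 2. Plasma cells over the mitochondrial limit, used in no comparison above, also carried an assigned V gene, in 6 cells of SPF day 0 and 4 cells of pGF day 0.

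The lambda share of plasma cells at day 7 minus day 0 was 2.55 percentage points in SPF and -0.789 in pGF, opposite in sign. The effective number of V genes at day 2 minus day 0 was -5.18 in SPF and 14.6 in pGF, again opposite, where day 2 had 47 cells. With Epcam left out of the gate the pGF values were 37.2 at day 2 and 31.5 at day 0, and with no other-lineage limit 34.4 and 30.5. Neither difference between the arms was tested, as each group is 1 library.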

How the results depend on the processing

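Of 173 values recomputed under other settings for 28 results, 163 stayed close to the value given and 10 moved. Close means within the interval of the value given (shares) or within 1.5 times of it (counts and effective numbers). Reversal of a difference was not scored. As a share of summed constant UMIs, those of kappa cells included, Iglc was 10.2% in SPF day 0, 9.14% in pGF day 0 and 6.71% in pGF day 7. Called from the V gene, the B-cell lambda share of pGF day 2 was 7.02%. Counting each light and heavy combination once moved the leading share to 5.98%, 6.25% and 8.65% in SPF day 0, SPF day 2 and pGF day 7, and the effective number to 49.8, 82 and 42.9 in SPF day 7, pGF day 2 and pGF day 7. The leading gene itself was less stable than its share: with no limit on other-lineage genes it was Igkv10-96 in SPF day 0, Igkv1-110 in pGF day 0 and Igkv14-111 in pGF day 2, and Igkv10-96 replaced Igkv6-23 in SPF day 2 under 3 settings, while Igkv6-23 in SPF day 7 and Igkv8-30 in pGF day 7 stayed first under every setting run. With Epcam left out of the limit, Iglv1 led pGF day 2 and the lambda share there was 10.1%. The counts of members called at 2-fold were 23 and 40 to 41 at day 0, and 35 to 36 and 27 to 29 at day 7. The small number of plasma cells in SPF day 7 and pGF day 2, 62 and 47, limits every share there. No paired analysis was possible because each group is 1 library with no replicate.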
